A study of Drosophila melanogaster with 6 samples.

Results

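The basement membrane is the sheet of extracellular matrix on which every imaginal disc epithelium rests, and 9 genes for its core proteins and for the enzymes that cut it were compared between haltere and wing discs. The members were chosen by name. They are the collagen IV genes vkg and Col4a1, the laminin genes LanA, LanB1 and LanB2, the perlecan gene trol, the matrix metalloproteinase genes Mmp1 and Mmp2, and Timp, which encodes their inhibitor. Each of the 9 had its own row in the authors' deposited table, which covers 7762 genes, and Col4a1 stands there under its older name Cg25C. The rule uses names alone, although earlier results of these data were known when it was written.

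The study profiled RNA from 3 haltere disc and 3 wing disc samples, 6 in all, described as independent biological replicates. All 6 came from wild-type Canton S larvae of Drosophila melanogaster at the wandering stage of the third instar, so tissue is the only labelled difference. The haltere is the balancing organ of the hind thoracic segment, where the homeotic gene Ubx (Ultrabithorax) directs an appendage that would otherwise become a wing. The table analysed here holds 1 comparison of the tissues and no value for any single sample, so the spread within a tissue cannot be shown and every error given rests on the authors' p-values.

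A basement membrane is built from linked networks of collagen IV and laminin, with perlecan between them. In fly larvae much of the collagen IV of the discs is secreted by other tissues, chiefly the fat body and blood cells, and reaches the discs through the hemolymph, so the RNA in a disc sample need not reflect the protein in its matrix. Matrix metalloproteinases cut these networks when discs evert and change shape, and studies of pupal appendages have linked Ubx to how long the matrix persists in the haltere. The samples here are from an earlier, larval stage.

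The direction of the fold change is not stated in the labels or the file. Ubx, which is known to be expressed in the haltere disc at far higher levels, had a log2 fold change of -5.22 in the authors' deposited table (FDR 2.98e-59, edgeR), so a negative sign is taken to mean a higher level in haltere discs. Markers fixed for the disc epithelium were all found, with row values for 8 of 8 genes. Their summed mean level was 1640 CPM (read counts scaled to a common library total). Of the 8, 0 were called at an FDR under 0.05 (edgeR), against 1.34% of all genes. An unadjusted p under 0.05 was seen for 2 of them, against 4.32% of all genes. By sign, 5 of the 8 were negative and 3 positive, where 49.9% of all genes were negative. The median log2 fold change of the list was -0.05. The smallest p-values of that list in the authors' deposited table were 0.00135 for nub, at a log2 fold change of 0.81, and 0.00372 for vg, at 0.82 (edgeR). Both genes are selectors of the wing pouch.

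None of the 9 basement membrane and protease genes passed the test for a difference between haltere and wing discs in the authors' deposited table. At an FDR under 0.05 (edgeR, Benjamini-Hochberg), 0 of the 9 were called, against 1.34% of all genes, 104 of 7762. At an unadjusted p under 0.05 the count was again 0 of 9, against 4.32% of all genes. With so few members, neither count stands apart from its background. The deposited FDR was 1 for each of the 9, as it was for 96.1% of all genes.

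The 9 log2 fold changes ran from -0.37 for LanA to 0.49 for trol, with a median of -0.06, beside a median of 0.00047 over all genes of the authors' deposited table. By sign, 5 were negative and 4 positive, and 49.9% of all genes were negative. The median size of the change was 0.10 on the log2 scale for the 9 genes and 0.16 for all genes. Of the 9 genes, 7 lay within 0.2 of 0, a ratio of less than 1.15-fold in either direction, as did 58.3% of all genes.

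A p-value above the threshold does not show that the tissues have equal levels, so a rough 95% interval was derived for each gene from its deposited fold change and p-value, taking the estimate as normally distributed on the log2 scale. The standard errors implied in this way ran from 0.26 for LanB2 to 0.41 for Timp. For 7 of the 9 genes the rough interval stayed between -1 and 1, that is within a 2-fold difference either way. LanA on the haltere side and trol on the wing side were the exceptions. Many p-values in the table are large (64.7% of all genes had a p above 0.5), so these intervals may be wider than the data required.

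**Figure D1:**
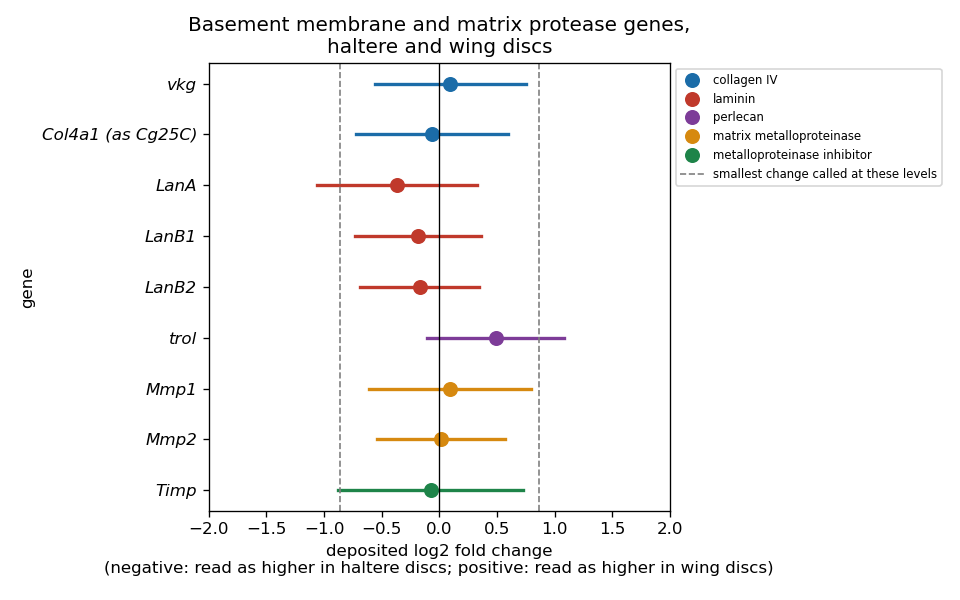
Deposited log2 fold change (horizontal axis) of each of the 9 genes (vertical axis), with points for the estimate, lines for the rough 95% interval derived from the deposited p-value, and colours for the protein class. Every line crosses 0, and no point reaches the dashed lines at 0.87 on either side, the smallest change called among genes within the same range of expression.

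The collagen IV genes had estimates close to 0. Col4a1 encodes the alpha1 chain and had a log2 fold change of -0.06 (rough interval -0.72 to 0.59, p = 0.851) at a mean of 55.0 CPM in the authors' deposited table. Its partner vkg (viking), which encodes the alpha2 chain, had 0.10 (rough interval -0.56 to 0.75, p = 0.774) at 33.1 CPM in the authors' deposited table. The signs differ, but the estimates lie 0.16 apart on the log2 scale, less than either implied standard error, 0.34 for Col4a1 and 0.33 for vkg.

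The chains assemble with each other, and their genes are also neighbours. On build BDGP6.54 (dm6 coordinates) vkg occupies chr2L:5012144-5028191 on the minus strand and Col4a1 chr2L:5029609-5037279 on the plus strand. The genes point away from each other with 1417 bases between their annotated starts. Neither overlaps another annotated gene.

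Laminin is a trimer of an alpha, a beta and a gamma chain. LanA (alpha) had the most negative change of the 9 genes, with a log2 fold change of -0.37 (rough interval -1.06 to 0.33, p = 0.303) at a mean of 506 CPM in the authors' deposited table. LanB1 (beta) stood at -0.18 (rough interval -0.73 to 0.37, p = 0.512) and 247 CPM in the authors' deposited table. LanB2 (gamma) stood at -0.17 (rough interval -0.69 to 0.35, p = 0.519) and 161 CPM in the authors' deposited table.

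All 3 laminin members thus lay on the haltere side of 0, by 1.13-fold to 1.29-fold, and no interval excluded equal levels. The fly has a second laminin alpha chain, encoded by wb (wing blister), and that gene lay on the other side of 0 at a log2 fold change of 0.46 (rough interval -0.27 to 1.19, p = 0.220) in the authors' deposited table. The difference of 0.83 between the alpha chain genes has no test of its own, because the table holds no values per sample. LanA lies at chr3L:6203831-6218022, LanB1 at chr2L:7811438-7820771 and LanB2 at chr3L:9614914-9623980 (BDGP6.54), and none of them overlaps another annotated gene.

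Perlecan is a large heparan sulfate proteoglycan of the basement membrane, and its gene trol (terribly reduced optic lobes) had the largest change of the 9. The log2 fold change was 0.49, read as lower in haltere discs by 1.40-fold, with a rough interval of -0.11 to 1.08 (p = 0.107) in the authors' deposited table. Its mean level was 112 CPM. By size of change trol exceeded 89.4% of all genes, and it exceeded 96.0% of the 770 genes within 0.5 log2 CPM of its own level. By the same measure LanA exceeded 97.3% of the 111 genes around its level, and the other 7 members exceeded between 6.57% and 67.0%. The implied standard errors of trol, 0.30, and LanA, 0.35, exceeded the medians around their levels, 0.26 and 0.25. Ranked by p-value trol was number 500 and LanA number 1309 of 7762.

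trol spans chrX:2470460-2545427 on the minus strand (BDGP6.54) and has 25 annotated transcripts with 62 distinct exons, which the table does not separate. A change limited to some of its isoforms would not appear in a value per gene. The exons of trol cover 20.7 kb, and genes with long exon sequence ran the other way as a class. The 186 genes with at least 10 kb of annotated exons had a median log2 fold change of -0.17 in the authors' deposited table, and 79.6% of them were negative, although 2 (1.08%) were called. Among these 186 genes trol ranked 8 from the most positive, and LanA, with 11.7 kb, ranked 34 from the most negative. The part of exon length in either value was not tested.

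Matrix metalloproteinases are the enzymes that degrade these networks, and the fly has the secreted Mmp1 and the membrane-anchored Mmp2. Mmp1 had a log2 fold change of 0.09 (rough interval -0.61 to 0.80, p = 0.798) at a mean of 129 CPM in the authors' deposited table. For Mmp2 the authors' deposited table gave 0.02 (rough interval -0.54 to 0.57, p = 0.957) at a mean of 4.70 log2 CPM, the smallest change of the 9 genes. Both genes lie on chromosome arm 2R. Mmp1 overlaps Pof on the opposite strand, and Pof stood at -0.17 and 3.68 log2 CPM in the authors' deposited table. Mmp2 overlaps 5 annotated non-coding genes, 3 of them on the opposite strand and none analysed here. Whether HTSeq used the strand is not given in the sources used here, so reads of the shared stretch cannot be assigned to one gene with certainty.

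Timp, the secreted inhibitor of both enzymes, had a log2 fold change of -0.08 (rough interval -0.88 to 0.73, p = 0.854) in the authors' deposited table. It was the least expressed of the 9 genes, at 7.60 CPM, and has the widest interval. A ratio between 0.545 and 1.65 (wing over haltere, as the sign is read) lies inside that interval. Timp lies at chr3R:10203875-10213007 on the minus strand (BDGP6.54), within the span of Syn, a gene on the plus strand that was not analysed here.

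The changes called among other genes at these levels give a scale for the 9 estimates. Between 2.93 and 8.98 log2 CPM, the range the 9 genes span, lay 5485 genes, of which 72 (1.31%) were called in the authors' deposited table. The smallest change called among them was 0.87 on the log2 scale, a 1.82-fold difference. Around the level of Timp, within 0.5 log2 CPM, the smallest change called was 1.28, and around the level of trol it was 0.92. None of the 111 genes within 0.5 log2 CPM of LanA was called, so no such value exists there. These values describe the calls made and are not detection limits.

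**Figure D2:**
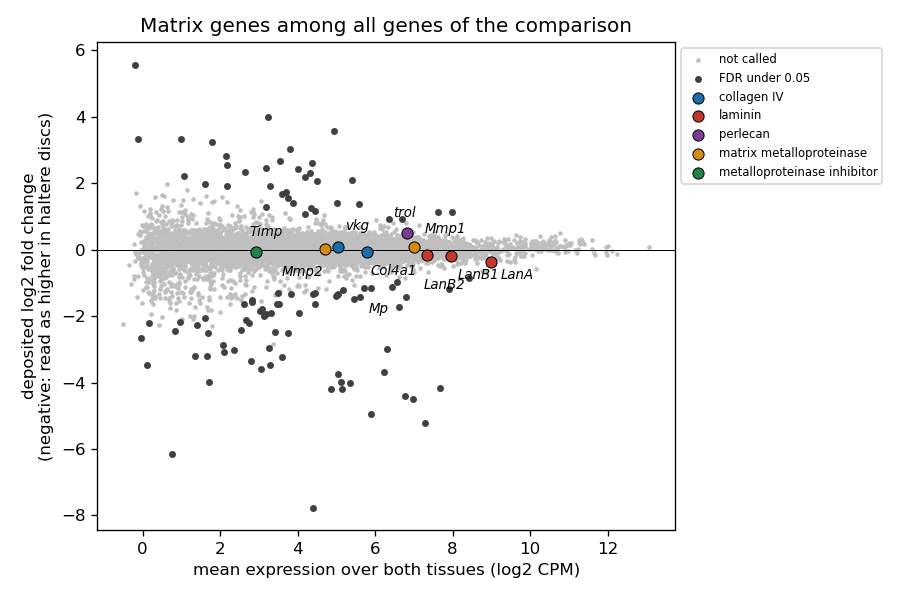
Deposited log2 fold change (vertical axis) against mean expression in log2 CPM (horizontal axis) for 7762 genes, with genes at an FDR under 0.05 in dark grey and the 9 matrix genes in colour. The 9 lie inside the band of genes that were not called, while the matrix gene Mp, at -1.42, lies outside it.

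The levels of the 9 genes differed widely from each other. The values behind this are means over both tissues, divided by the length of all annotated exons, and they carry no error because no sample values are available. LanA led with 43.3 CPM per kb, followed by LanB1 with 39.4, LanB2 with 27.2 and Mmp1 with 26.7 CPM per kb. A wide gap followed. Col4a1 had 8.92 CPM per kb, trol 5.44, Mmp2 5.14, vkg 5.09 and Timp 4.78. Whether neighbours in this order differ beyond the spread between samples cannot be told.

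The order depended on the length used for Mmp1 and LanB2. Per kb of the longest transcript, Mmp1 had 33.3 and LanB2 27.4 CPM per kb, which puts Mmp1 ahead. The other 7 genes kept their ranks. The genes for the laminin chains lay within 1.59-fold of each other per length of exons. Col4a1 exceeded vkg by 1.75-fold per length. LanB1 exceeded Col4a1 by 4.42-fold. Among the proteases, Mmp1 stood 5.19-fold above Mmp2 and 5.59-fold above Timp per length of exons. These are RNA levels in disc samples, and collagen IV protein that reaches the discs from elsewhere is not counted in them. Collagen IV RNA of any fat body or blood cells within the samples would be counted.

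**Figure D3:**
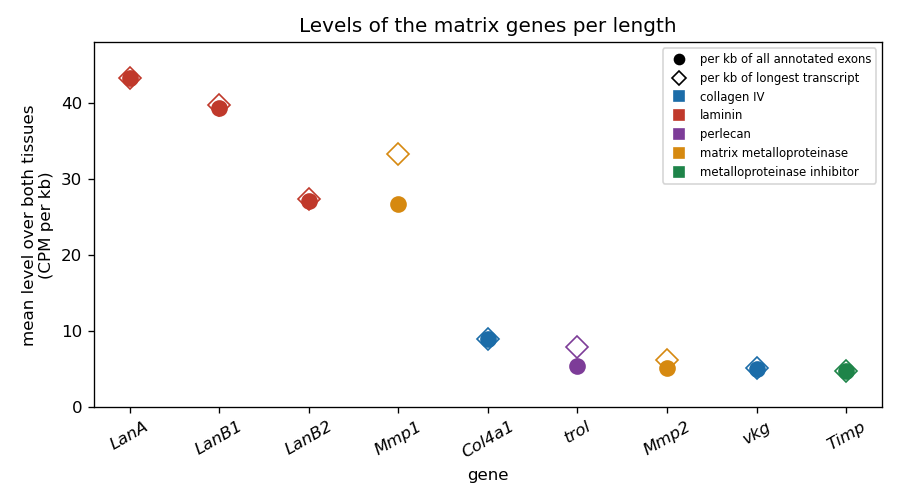
Mean level over both tissues in CPM per kb (vertical axis) for each of the 9 genes (horizontal axis), per kb of all annotated exons (filled circles) and per kb of the longest transcript (open diamonds). LanA, LanB1, LanB2 and Mmp1 lie above 26 CPM per kb, and the other genes below 10 on either measure.

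In unscaled terms the 9 genes reached the 27.1 to 97.7 percentile of all genes by mean expression, with Timp lowest and LanA highest. Their summed mean was 0.224% of the summed CPM of all genes, and the laminin genes made up 71.5% of that sum, before any scaling by length.

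A wider set of 52 genes in 6 lists, for the matrix, its receptors and the JNK pathway, was then examined, of which 47 had a row analysed here. Ndg, prc, Cow, dyl and stl were not analysed here. Of the 47 genes, 1 was called at an FDR under 0.05 (edgeR) in the authors' deposited table, against 1.34% of all genes. An unadjusted p under 0.05 was seen for 4 of them, against 4.32% of all genes. With so few genes, the single call does not stand apart from its background. Negative values numbered 31 and positive values 16, and 40 of the 47 lay within 0.5 of 0. Over all genes, 49.9% were negative and 89.4% lay within 0.49 of 0. The median of the 47 genes was -0.11, beside 0.00047 for all genes.

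The gene that passed was Mp (Multiplexin), which encodes the fly's relative of the vertebrate collagens XV and XVIII found in basement membranes. Mp was higher in haltere discs by 2.67-fold, at a log2 fold change of -1.42 (rough interval -2.03 to -0.81, FDR = 0.00085, edgeR) in the authors' deposited table. Its mean level was 49.1 CPM, or 7.48 CPM per kb of exons, between Col4a1 and trol. Per kb of the longest transcript Mp had 9.52 CPM, above Col4a1 at 9.02. It ranked 46 of 7762 by p-value. Mp lies at chr3L:6998843-7053499 (BDGP6.54), has 16 annotated transcripts, and contains CG17744 and the antisense RNA asRNA:CR45832 on the opposite strand, neither of which was analysed here.

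The rest of the list of other basement membrane proteins did not pass. SPARC, a collagen-binding protein needed for collagen IV deposition, lay on the wing side at 0.67 (p = 0.0253, FDR = 0.774, edgeR) in the authors' deposited table, where it is named BM-40-SPARC. Ppn (papilin), the most expressed of this list at 231 CPM, was at -0.0023 in the authors' deposited table. Pxn (peroxidasin, the enzyme that crosslinks collagen IV) was at -0.52 with a p-value of 0.288 in the authors' deposited table.

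Genes for making and secreting collagen had changes in the range of most genes. All 8 lay within 0.5 of 0, 3 negative and 5 positive, with a median of 0.14 and 0 called in the authors' deposited table (0 also at an unadjusted p under 0.05, edgeR). Over all genes, 89.4% lay within 0.49 of 0 and 1.34% were called. They include the prolyl 4-hydroxylase gene PH4alphaEFB at 0.15 and Tango1, which encodes the cargo receptor that loads collagen into transport vesicles, at -0.05. The smallest p-values of the list in the authors' deposited table were 0.393 for Crag, at -0.23, and 0.427 for Ehbp1, at -0.21. Crag directs basement membrane proteins to the basal side of epithelia.

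Other proteases and inhibitors of the matrix had 9 negative and 2 positive values among 11 genes, where 49.9% of all genes were negative. Of the 11, 0 were called (1.34% of all genes, edgeR) and 1 had an unadjusted p under 0.05 (4.32% of all genes). That gene was loh (lonely heart), which encodes an ADAMTS-like matrix protein, at -1.26 (p = 0.0172, FDR = 0.598, edgeR) at a low level of 2.34 CPM in the authors' deposited table. Sb (Stubble), a transmembrane serine protease needed for appendage eversion, stood at -0.53 with a p-value of 0.110 in the authors' deposited table. The most expressed gene of this list was tok (tolkin, a secreted metalloprotease) at 143 CPM and -0.06. Reck, whose vertebrate relative is an inhibitor of metalloproteinases, had 0.36 with a p-value of 0.232 in the authors' deposited table.

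Among 5 genes on the list of other matrix proteins, Tig (tiggrin, an integrin ligand of muscle attachment sites) stood at -0.87 (p = 0.0245, FDR = 0.767, edgeR) in the authors' deposited table. The others lay within 0.5 of 0, including pio (piopio, an apical matrix protein), the most expressed at 225 CPM and a log2 fold change of 0.10. The gene mgl, which was on this list although it encodes a lipoprotein receptor and not a matrix protein, had -0.18.

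Of 10 receptors and coreceptors, 9 lay within 0.5 of 0 and 0 were called in the authors' deposited table (0 also at an unadjusted p under 0.05, edgeR). Over all genes, 89.4% lay within 0.49 of 0 and 1.34% were called. The integrin subunit genes mys, if, mew and scb ran from -0.21 to 0.05, and the dystroglycan gene Dg was at -0.13 in the authors' deposited table. The glypican gene dlp was farthest from 0, at 0.61 with a p-value of 0.0615, and dally, the most expressed at 202 CPM, was at 0.26, in the authors' deposited table.

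Mmp1 is a known target of JNK signalling, so genes of that pathway were listed beside it. Of 8 genes, 6 were negative, all 8 lay within 0.5 of 0 and 0 were called in the authors' deposited table (0 also at an unadjusted p under 0.05, edgeR). Over all genes, 49.9% were negative, 89.4% lay within 0.49 of 0 and 1.34% were called. The ligand gene egr had -0.39 with a p-value of 0.363 and the kinase gene hep -0.34 with a p-value of 0.198 in the authors' deposited table. The Fos gene kay, the most expressed at 163 CPM, had -0.17. The phosphatase gene puc, a widely used readout of the pathway, had -0.23.

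Markers of other tissues are given here because the fat body and blood cells make collagen IV. Genes were called in the fat body, larval muscle and adult muscle precursor lists, and in neither the hemocyte nor the tracheal list. Over all genes, 1.34% were called. In bulk samples fewer cells of a type and less RNA per cell cannot be told apart. All 9 fat body markers were negative in the authors' deposited table, with a median log2 fold change of -4.16 and 6 called, among them Lsp1beta at -4.49 (FDR 4.57e-16, edgeR) and apolpp at -4.01 (FDR 1.34e-08, edgeR). The fat body markers were not uniform, since Lpin stood at -0.03 (p = 0.938) and FASN1 at -0.31 (p = 0.414) in the authors' deposited table. Col4a1 and vkg stood at -0.06 and 0.10. The part of fat body RNA in the collagen IV values was not tested.

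All 10 hemocyte markers were negative as well, with a median of -0.37 in the authors' deposited table. Of the 10, 0 were called and 0 had an unadjusted p under 0.05 (edgeR), against 1.34% and 4.32% of all genes. With so few markers, neither count stands apart from its background. The smallest p-values were 0.196 for Nplp2, at -0.90, and 0.288 for Pxn, which is also on the basement membrane list. The summed mean level of the hemocyte list was 137 CPM, and that of the fat body list 725 CPM, both over the 2 tissues together because the table gives no level per tissue. All genes of both lists had a row, and the lowest level among them was that of He, at 1.73 CPM.

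All 9 larval muscle markers were negative in the authors' deposited table, with a median of -1.55 and 6 called, including up at -1.65 (FDR 9.61e-05, edgeR) and Act57B at -1.41 (FDR 0.000447, edgeR). Mp and Tig were among the 31 of 47 companion genes on the same side. The part of larval muscle in the values of Mp and Tig was not tested. All 5 markers of adult muscle precursors were positive, with a median of 1.44 and 2 called, Him at 2.55 (FDR 0.000119, edgeR) and twi at 1.93 (FDR 0.00501, edgeR), in the authors' deposited table. These cells lie beneath the notum epithelium of the wing disc. On the wing side lay 4 of the 9 genes, trol among them, and 16 of the 47 companion genes, SPARC and wb among them. The part of adult muscle precursors in the values of trol, SPARC and wb was not tested.

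Of the 5 tracheal markers 4 were negative and 0 were called in the authors' deposited table. Over all genes, 49.9% were negative and 1.34% were called. The smallest p-values of that list were 0.00128 for trh, at 1.03, and 0.0751 for btl, at -0.76, in the authors' deposited table (edgeR).

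**Figure D4:**
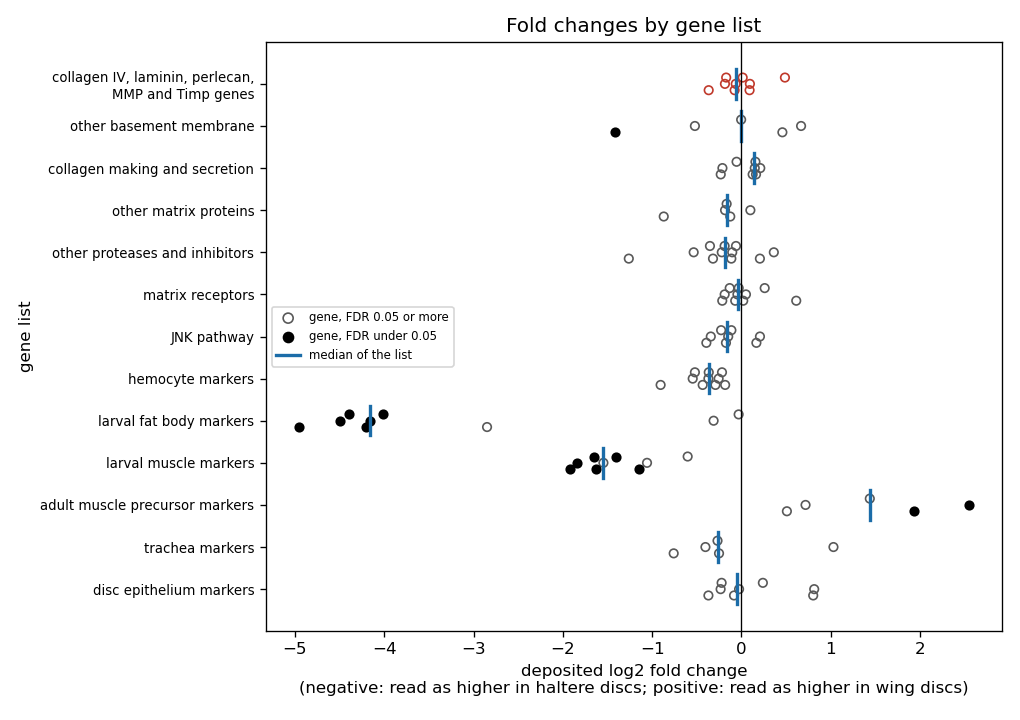
Deposited log2 fold change (horizontal axis) of each gene in the 9-gene set, in 6 lists of other matrix and related genes and in 6 lists of tissue markers (vertical axis), with filled points for an FDR under 0.05 and blue bars for list medians. The 9 genes lie between -0.37 and 0.49. Of the 47 genes in the other matrix and related lists, 6 lie farther to the haltere side than any of the 9, and 2 farther to the wing side. Farther to the haltere side also lie 7 of 9 fat body markers, all larval muscle markers and 5 of 10 hemocyte markers. All adult muscle precursor markers lie farther to the wing side. The tracheal and disc epithelium lists have genes beyond the 9 on both sides.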

How the data were processed

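RNA from 3 haltere disc and 3 wing disc samples was sequenced as directional paired-end libraries, per the labels' protocols. The submitters' processing notes name HISAT2, HTSeq and edgeR and the build dm6. Versions, annotation, low-count filter and the edgeR test are not given in the sources used here. Per the file headers, the authors' deposited table holds 4 values per gene, namely the log2 fold change, the log2 CPM averaged over samples, the p-value and the FDR. Fold changes cannot be attributed to single samples, library depth is unknown, and no replicate SD can be given. The number of per-sample columns left aside was 0.

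The table had 7767 rows, of which 5 are summary lines of the read counter. They hold 43.3% of the summed CPM, were left out of all gene counts, and make every CPM relative to a total that includes reads in no gene. Recomputed Benjamini-Hochberg values matched the deposited FDR to within 6.24e-06.

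Members and lists were chosen with earlier results of these data known. Named genes are all members, Ubx, companion genes with an FDR or unadjusted p under 0.05, the 2 smallest p-values of each list and the most expressed gene of each companion list. Other genes named were chosen after their values were seen. They are wb, Pxn as a matrix gene, PH4alphaEFB, Tango1, Reck, the integrin genes, Dg, puc, Lpin, FASN1, He and genes overlapping members. Symbols were matched directly or through a RefSeq synonym belonging to 1 gene. Positions and exon lengths came from Ensembl release 115 (BDGP6.54), and 80.7% of genes had an exon length by symbol. The rough standard error is the absolute log2 fold change divided by the standard normal deviate that corresponds to the p-value. Computations used Python 3.11.15, pandas 2.3.3, NumPy 2.4.6 and SciPy 1.17.1, and the adjustment was tested on simulated data.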

Additional observations from a re-analysis of the deposited data

Results flagged for a closer look

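Signal outside the gene comparison came from 5 rows that HTSeq writes for reads in no single gene. These rows hold 43.3% of the summed CPM of the table, so each CPM level given for the 9 matrix genes is relative to a total that includes them.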

How the results depend on the processing

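The count of 0 called genes among the 9 was the same at an FDR under 0.01 and under 0.1, with a Bonferroni adjustment, with a minimum log2 change of 1, with a minimum mean expression of 1 log2 CPM and with the summary lines removed. None of these settings could have added a call, since the smallest unadjusted p of the 9 was 0.107 (edgeR). Mp was the 1 companion gene called under each of these. The counts over all genes moved by more than 1.5 times only under the Bonferroni adjustment, which left 50 of the 104 genes, 27 negative and 23 positive. Readjusting after the expression filter or without the summary lines changed no call among the 12 genes checked, and the FDR of Mp stayed between 0.000849 and 0.000855. All of these settings start from the deposited p-values and leave the fold changes as they are. No paired analysis was possible because sample values are not part of the table. For the same reason DESeq2 and the fits without each replicate were not run, so whether 1 library decides a value is not known. Promoter motif counts were not run, since no promoter sequence was used here.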
